A study of Pimephales promelas with 28 samples.

Results

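The brightest transcripts of control fathead minnow liver are described here: the 200 probes, of 15208 on the array, with the highest median signal over the 14 control arrays. The members were selected on this measured signal alone. They make up 1.32% of the probes. Signal was taken as log2 of the processed intensity minus the 75th percentile of the same array, so a value of 0 is the 75th percentile and each unit is a doubling. The same control values that chose the probes enter every comparison with control liver below, and their control levels are a description with no test. The brightness of a probe also depends on the probe itself, so ranks order signals and not amounts of RNA.

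The fish were female fathead minnows (Pimephales promelas), a small freshwater fish used in toxicology, and the tissue label calls them sexually regressed. Phenanthrene, a polycyclic aromatic hydrocarbon, was the agent at a labelled 29 ng per L for 24 h (5 arrays), 48 h (5 arrays) or 72 h (4 arrays). Control liver, with no agent and a labelled 0 ng per L, was measured on 4 arrays of 24 h, on 5 of 48 h and on 5 of 72 h. The labels give neither age nor strain, and do not say whether RNA of different fish went onto different arrays, so a p-value reflects array-to-array spread, which may be technical. The series title gives the purpose as following liver expression under phenanthrene through 72 h.

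The liver makes most of the proteins of fish plasma, and a small set of messages for secreted and metabolic proteins usually dominates hepatocyte RNA. Exposure to polycyclic aromatic hydrocarbons is best known in fish liver for the induction of cytochrome P450 enzymes through the aryl hydrocarbon receptor. The files name each probe by an assembled-sequence contig, a gi number or a clone. A gene of the RefSeq table used here was matched by 0 of the 200 identifiers, and by 0 of all 15208. The transcripts are therefore given by probe name, with no gene role, and neither hepatocyte markers nor markers of other cells could be looked up. In bulk tissue, fewer cells of a type and less RNA per cell cannot be told apart.

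Signal quality differed between arrays. Their 75th percentiles of signal lay between 134.5 and 1253 intensity units. The bright-corner control spots stood at 17.87 and 19.00 log2 units on phenanthrene 48 h replicate 1 and phenanthrene 72 h replicate 4, whereas on control arrays they stood between 10.07 and 11.85. The fewest probes well above background, 5127, were counted on phenanthrene 24 h replicate 3. Some results are also given without these 3 phenanthrene arrays, whose quality was doubtful. For the 200 probes signal was not limiting: 199 were well above background on all 28 arrays, and the exception missed on phenanthrene 24 h replicate 3 alone. The scanner saturated on 25 of their spots, from 19 of the probes, 17 of them on phenanthrene 72 h replicate 4 and 8 on phenanthrene 48 h replicate 1. A saturated spot gives a lower bound on the level of that probe.

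Together the 200 probes held most of the signal of a liver array. Their share of the summed signal had a median of 69.3% over the 14 phenanthrene arrays, with a range of 43.4% to 76.4%. Without the 3 doubtful arrays the phenanthrene median was 69.1% and the range 58.0% to 76.4%. Over the 14 control arrays the median was 70.4%, with a range of 63.1% to 78.3%. At 24 h the share was 73.3%, 69.1%, 69.7%, 64.8% and 68.2% on the phenanthrene arrays, against 69.5%, 73.8%, 74.1% and 68.7% on the control arrays. The groups overlapped, and the lowest value of this time was on a phenanthrene array.

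At 48 h the phenanthrene arrays gave 74.2%, 73.5%, 58.0%, 71.7% and 68.3%, and the control arrays 69.1%, 63.7%, 78.3%, 71.2% and 72.7%. Phenanthrene 48 h replicate 3 lay below all 5 controls of its time, and the other 4 phenanthrene arrays lay inside the control range. At 72 h the phenanthrene arrays gave 65.0%, 69.5%, 76.4% and 43.4%, against 77.2%, 66.3%, 63.1%, 68.6% and 72.9% in the controls. The value of 43.4% belonged to phenanthrene 72 h replicate 4, a doubtful array with 17 saturated spots of the list. Phenanthrene 72 h replicate 4 also had the highest 75th percentile, 1253 intensity units. On that array its own 200 brightest probes held 61.6% of the signal, and 124 of the control-chosen probes were among them, where every other array had 160 to 188.

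The share was lower on the 5 arrays with the highest 75th percentile than on the 5 with the lowest. This percentile does not measure the brightness of the 200 probes. On phenanthrene 48 h replicate 1 it was 334.4 units, yet the median of the list stood 9.81 log2 units above it, the most of any array. The 5 arrays with the lowest 75th percentile, 134.5 to 183.4 intensity units, gave shares of 68.2% to 78.3%. The 5 arrays with the highest, 353.3 to 1253 units, gave shares of 43.4% to 66.3%. These ranges did not overlap, and each set held both phenanthrene and control arrays (2 and 3 in the first, 3 and 2 in the second). Between the sets, arrays of like 75th percentile could differ. Control 24 h replicate 3, at 323.1 units, gave 74.1%, and control 48 h replicate 2, at 324.4 units, gave 63.7%. Share and percentile come from the same signals and are not independent, and the part of the percentile in the share was not tested.

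**Figure D1:**
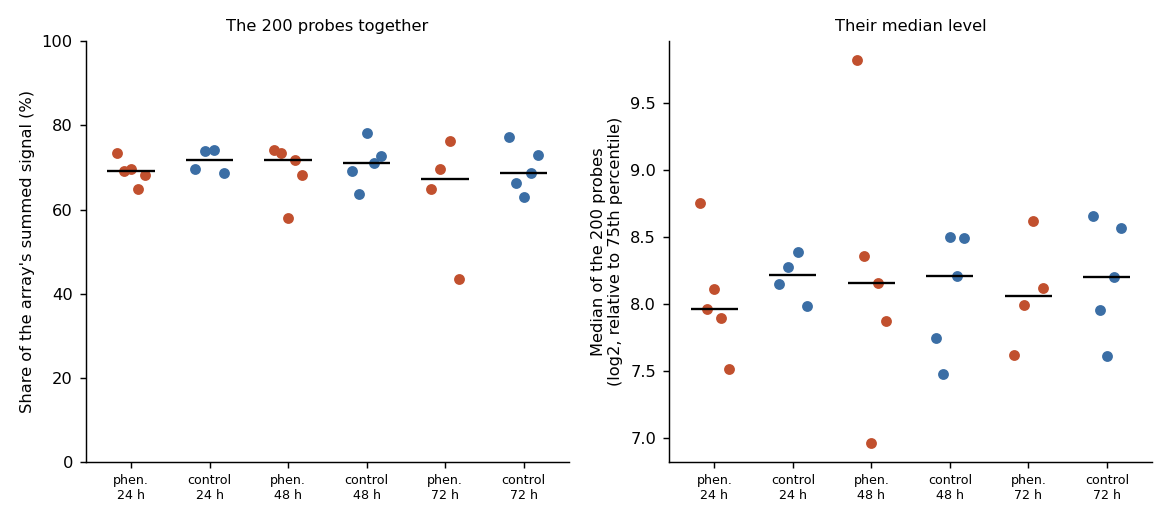
Left, the share (%) of each array's summed signal held by the 200 probes; right, the median log2 level of the 200 probes relative to the array's 75th percentile. Points are arrays, black lines group medians. The lowest share, 43.4%, is phenanthrene 72 h replicate 4, a doubtful array. The highest and lowest medians, 9.81 and 6.97, are both phenanthrene 48 h arrays.

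The signal was concentrated further within the list, yet no single probe dominated it. The brightest probe held a median of 1.59% of the signal on phenanthrene arrays and 1.63% on control arrays. The 10 brightest held 10.2% on phenanthrene arrays and 10.4% on control arrays, and the 50 brightest 34.1% on phenanthrene arrays and 35.1% on control arrays. Taking 500 probes brought the medians to 82.1% on phenanthrene arrays and 83.4% on control arrays, and 1000 probes brought them to 88.9% on phenanthrene arrays and 90.0% on control arrays. At 200 probes 2 phenanthrene arrays lay below every control array, 48 h replicate 3 and the doubtful 72 h replicate 4.

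**Figure D2:**
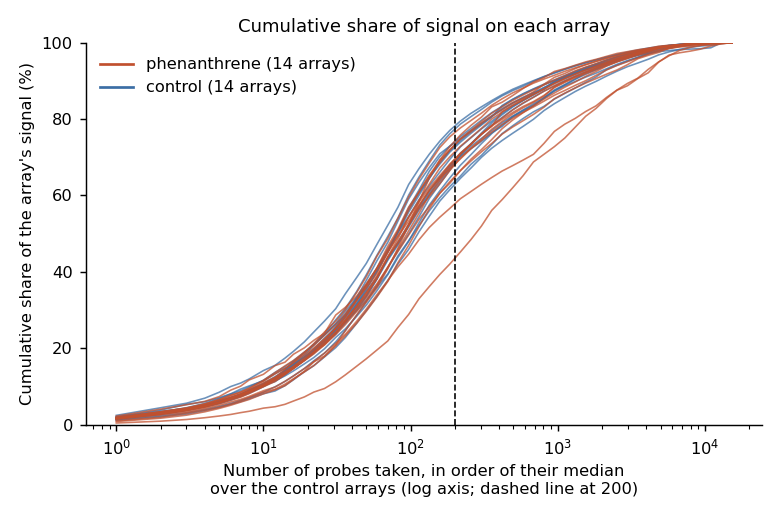
Cumulative share (%) of each array's signal (vertical axis) when probes are added in the order of their control median (horizontal log axis), 1 line per array. The lowest line, 43.4% at 200 probes, is phenanthrene 72 h replicate 4, a doubtful array, and the next, 58.0%, is phenanthrene 48 h replicate 3.

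The control medians of the 200 probes ran from 10.699 down to 6.37 log2 units, with a median of 8.15. This corresponds to 1663-fold, 82.7-fold and 283-fold over the 75th percentile. The median of all 15208 probes was -2.83. The top of the list was UF_Ppr_AF_109972, followed by UF_Ppr_AF_102718 and UF_Ppr_AF_107896, and the next places were held by UF_Ppr_AF_116961, UF_Ppr_AF_116431, UF_Ppr_AF_105655, UF_Ppr_AF_114707, UF_Ppr_AF_101877, UF_Ppr_AF_106383 and UF_Ppr_AF_109733. The medians of these 10 probes over the phenanthrene arrays, which the rule did not use, placed 9 of them among the 9 highest and UF_Ppr_AF_106383 at rank 12.

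UF_Ppr_AF_109972 was the brightest probe on 25 of the 28 arrays. At 24 h it stood at 11.05, 10.54, 10.54, 9.73 and 10.90 log2 units on phenanthrene arrays, against 10.67, 11.12, 10.73 and 10.62 on control arrays. At 48 h it stood at 11.06, 10.77, 9.58, 10.72 and 10.74 on phenanthrene arrays, against 10.35, 10.64, 11.70, 10.96 and 10.85 on control arrays. At 72 h it stood at 10.38, 10.90, 11.20 and 9.18 on phenanthrene arrays, against 11.20, 10.37, 9.71, 10.37 and 10.86 on control arrays. The groups overlapped at every time, and a phenanthrene array was lowest at each. The probe was singled out for its control levels, and that choice favours lower phenanthrene values. The 9.18 is on phenanthrene 72 h replicate 4, a doubtful array. The 9.58 is on phenanthrene 48 h replicate 3, where the list had a mean shift of -1.28 from its group mean. On phenanthrene 24 h replicate 4 UF_Ppr_AF_107896 was brightest. On phenanthrene 48 h replicate 1 and phenanthrene 72 h replicate 4, which hold the saturated spots, no first place is given.

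The lower edge of the list was not a step. The last members were UF_Ppr_AF_108897, UF_Ppr_AF_115022 and UF_Ppr_AF_110196, with control medians of 6.42, 6.37 and 6.37. The first probes left out were UF_Ppr_AF_110344, UF_Ppr_AF_109160 and UF_Ppr_AF_108969, with control medians of 6.36, 6.35 and 6.35. Of the 200 probes, 194 were also among the 200 highest medians of the phenanthrene arrays. The 6 others fell to ranks between 201 and 325, the lowest being UF_Ppr_AF_101592 with a phenanthrene median of 5.20, against a control median of 6.44.

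In place of those 6, the phenanthrene arrays brought in 6 probes, of which 5 had control ranks of 201 to 253. The sixth, UF_Ppr_AF_118356, was singled out after its values were seen, since its control rank was 842 and its phenanthrene rank 115. Its median was 7.75 on phenanthrene arrays, with a range of -3.05 to 10.78, and 3.14 on control arrays, with a range of -0.21 to 10.13. It was among the 200 brightest probes on 8 of the 14 phenanthrene arrays and on 4 of the 14 control arrays. Its fitted difference over the 3 times was 1.49 log2 units (SE 1.39, limma with Benjamini-Hochberg adjusted p = 0.850), which did not pass the test, and the ranges overlapped.

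Array by array, 92 of the 200 probes were among the 200 brightest on all 28 arrays, and 169 were among the 500 brightest. For all 14 phenanthrene arrays the first count was 94, and for all 14 control arrays, which chose them, 126. In all, 418 different probes appeared among the 200 brightest of at least 1 array. The deepest fall was UF_Ppr_AF_101592, at rank 7353 on control 72 h replicate 1.

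The order within the list was kept more on some arrays than on others. Spearman's rho over the 200 probes, between an array and the median of the control arrays other than itself, lay between 0.645 and 0.944 on the phenanthrene arrays and between 0.799 and 0.900 on the control arrays. These are correlations across probes, which are not replicates. The lowest were 0.645 on phenanthrene 72 h replicate 4 and 0.746 on phenanthrene 24 h replicate 5. After removal of the median departure of each array, 63.0% of the probes lay within 2-fold of their control median on phenanthrene 72 h replicate 4 and 77.5% on phenanthrene 24 h replicate 5. Control 24 h replicate 2 also stood apart, at 78.5%, with 16 probes more than 4-fold below their control median, as against 14 on phenanthrene 24 h replicate 5.

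As deposited, the bright probes varied less between arrays of a group than the tested probes at large. The within-group SD, pooled over the 6 groups, had a median of 0.673 log2 units over the 200 probes and of 0.804 over all 11492 tested probes. It was above 1 for 27 of the 200 probes, 13.5%, against 31.0% of all tested probes. It grew down the list, with medians of 0.588 for ranks 1 to 50, 0.672 for ranks 51 to 100, 0.726 for ranks 101 to 150 and 0.781 for ranks 151 to 200. The 200 probes next in rank had a median of 0.774. Under normexp, a background correction that compresses the dim end of the scale, the order turned round, with medians of 0.682 for the 200 probes and 0.544 for all tested probes. For the 10 brightest the SD lay between 0.498 and 0.645.

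**Figure D3:**
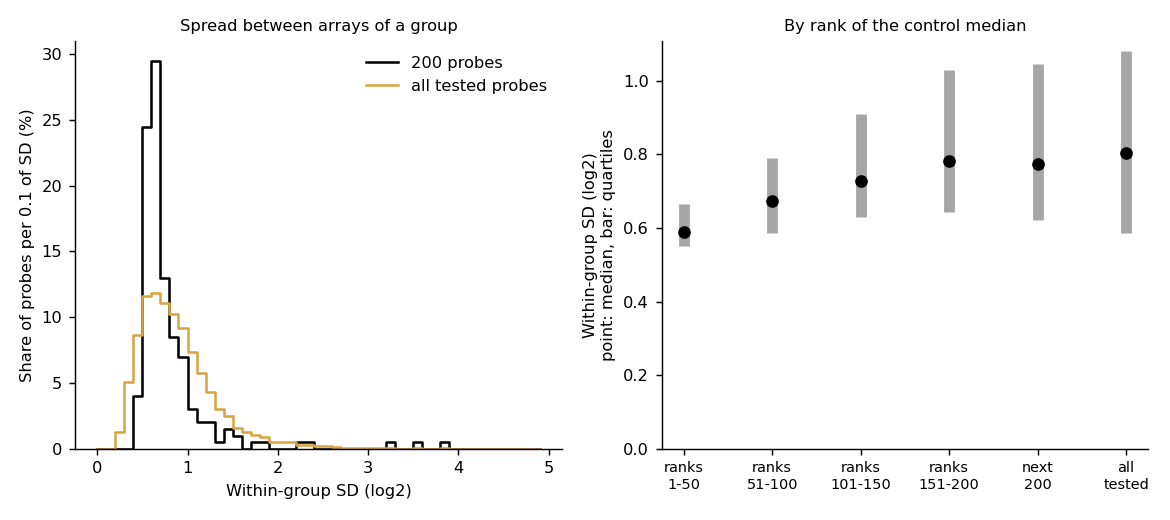
Left, the distribution of the within-group SD (log2) for the 200 probes and for all 11492 tested probes, as a share of each set (%). Right, its median (points) and quartiles (bars) by rank of the control median, from 0.588 for ranks 1 to 50 to 0.781 for ranks 151 to 200.

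Part of this spread was a common shift of the bright probes on single arrays. A single shift per array accounted for 33.7% of the within-group sum of squares of the 193 members without a marked spot. Over the 10933 tested probes without a marked spot, it accounted for 2.73%. Each array had already been scaled to a percentile over all its probes, which takes out much of any shift common to them. The figure of 2.73% is thus small partly by construction, and its contrast with 33.7% is not a test. The largest shifts from the group mean were 1.37 log2 units on phenanthrene 48 h replicate 1 and -1.28 on phenanthrene 48 h replicate 3, so the 2 extremes fell in 1 group. These 2 arrays weigh more than any other in the 33.7%. Phenanthrene 48 h replicate 1 is a doubtful array with 8 of the saturated spots, and without it the median SD of the list was 0.572. With each array centred on the median of the 200 probes, the median SD was 0.479, where that of all tested probes was 0.969. An SD above 1 was then found for 23 probes, of which 22 were among the 27 above. That centring was chosen after seeing the data. It takes the common shift out of the list and puts it into the other probes. Part of the gap between 0.479 and 0.969 thus follows from the centring.

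The 4 probes with the largest SD were not shifted in common with the list. UF_Ppr_AF_115272 (contig FJU.85.C11) had an SD of 3.57. At 24 h it stood at 10.34, 4.36, 3.01, 8.26 and 3.34 log2 units on phenanthrene arrays, against 5.06, 10.54, 10.12 and 4.24 on control arrays. At 48 h it stood at 9.61, 10.26, 2.87, 10.31 and 6.92 on phenanthrene arrays, against 9.81, 3.71, 11.33, 6.74 and 10.42 on control arrays. Every group held arrays with a high level and arrays with a low one, and at 72 h the range was -1.004 to 10.71 on phenanthrene arrays and 3.18 to 10.86 on control arrays.

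UF_Ppr_AF_115478 (contig FJU.119.C2) had the largest SD, 3.89, and followed the same arrays. After removal of the median departure of each array, both probes lay more than 4-fold below their control median on the same 10 arrays, 5 with phenanthrene and 5 controls. Both lay more than 4-fold above it on 5 arrays, 2 with phenanthrene and 3 controls. On no array was one of them more than 4-fold above and the other more than 4-fold below. The contigs carry different cluster numbers. A second member of cluster FJU.85, UF_Ppr_AF_104772, did not share the pattern and had an SD of 0.567, with levels between 8.56 and 10.94 on all arrays.

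UF_Ppr_AF_101592, with an SD of 3.29, was high and low on other arrays. At 48 h it stood at 1.53, -1.06, 5.45, 7.55 and 5.67 on phenanthrene arrays, against 7.87, 7.89, 8.37, 8.40 and 4.77 on control arrays. The difference of -3.63 log2 units (SE 1.94) did not pass the test (limma, Benjamini-Hochberg adjusted p = 0.953). Within slides it was -7.90 on slide 3 and -0.08 on slide 4, each with 2 phenanthrene and 2 control arrays. UF_Ppr_AF_107235, with an SD of 2.34, ran from 5.37 to 7.99 over all control arrays. On phenanthrene arrays it stood at 6.998, 3.60, 8.10, -1.17 and 4.62 at 24 h, at 4.85, 8.61, 5.37, 6.13 and 7.88 at 48 h, and at 7.27, 7.55, 6.37 and -1.09 at 72 h. After removal of the median departure of each array it lay more than 4-fold below its control median on 4 phenanthrene arrays and 0 control arrays. The probe owes its place in the list to its control levels, so this contrast was not independent of the choice. Its value of -1.09 is on phenanthrene 72 h replicate 4, a doubtful array. Its difference over the 3 times was -1.45 (SE 0.83, limma with Benjamini-Hochberg adjusted p = 0.836), and -0.94 without the 3 doubtful arrays.

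The steadiest members had an SD of 0.428 (UF_Ppr_AF_115022), 0.451 (UF_Ppr_AF_113456), 0.454 (UF_Ppr_AF_118635) and 0.478 (UF_Ppr_AF_102884). Apart from UF_Ppr_AF_118635, at rank 103, they lay near the end of the list, at ranks 199, 166 and 185. UF_Ppr_AF_118635 stood between 7.04 and 9.41 on phenanthrene arrays and between 7.30 and 8.71 on control arrays.

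**Figure D4:**
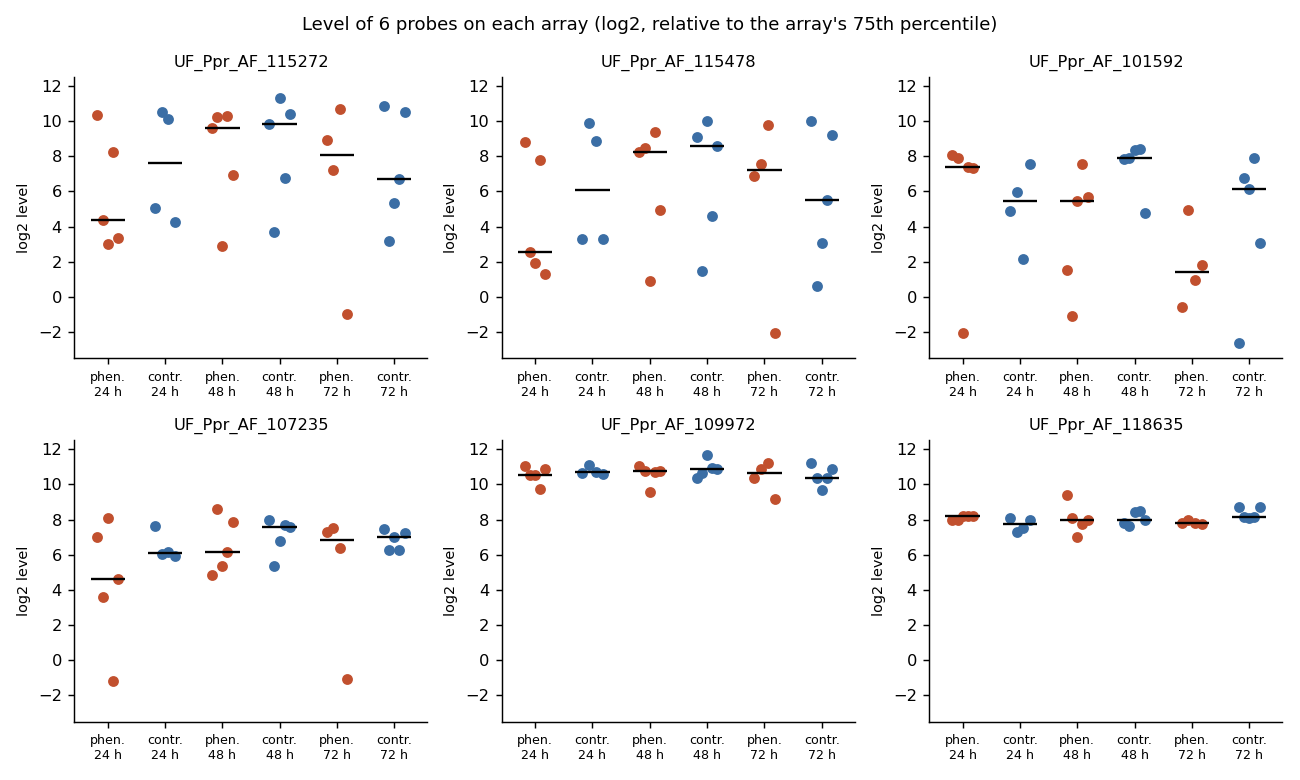
Level (log2, relative to the 75th percentile) of 6 of the probes on each array, by group, with black lines at group medians. UF_Ppr_AF_115272, UF_Ppr_AF_115478 and UF_Ppr_AF_101592 spread over many log2 units inside a group, UF_Ppr_AF_107235 reaches -1.17 and -1.09 on phenanthrene arrays, and UF_Ppr_AF_109972 and UF_Ppr_AF_118635 stay within 3 log2 units over all arrays.

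At 24 h no bright probe passed the test of phenanthrene against control liver. By limma with Benjamini-Hochberg adjustment over all 11492 tested probes, 0 of the 200 passed, as did 0 of all probes, or 0%. Unadjusted p-values under 0.05 were reached by 0 higher and 0 lower members, where 0.74% of all tested probes were higher and 1.71% lower. Their log2 differences had a median of -0.13, against -0.08 for all tested probes, and 97.0% of them lay within 2-fold, against 91.6%. With median scaling in place of the 75th percentile, which moved the median of all tested probes to 0.14, the median of the list was 0.09. Of the 193 probes with no marked spot, 0 had groups that did not overlap, where 1.32% of all such probes did.

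The lead among higher probes at 24 h was UF_Ppr_AF_119024, at 6.41, 6.62, 7.47, 6.33 and 6.39 log2 units on phenanthrene arrays, against 5.90, 4.74, 3.11 and 7.67 on control arrays. All but 1 control lay below all 5 phenanthrene arrays, and the difference was 1.29 (SE 0.77). Within slides it was 1.20 on slide 1 and 3.79 on slide 2, but -1.29 on slide 5. UF_Ppr_AF_111023 differed by 0.94 (SE 0.58). Among lower probes, UF_Ppr_AF_110059 differed by -0.92 (SE 0.54) and UF_Ppr_AF_107977 by -0.93 (SE 0.54). UF_Ppr_AF_107977 had 9.50, 8.41, 8.42, 8.13 and 5.37 on phenanthrene arrays, against 8.64, 9.31, 9.09 and 8.52 on control arrays, so phenanthrene 24 h replicate 5 alone stood far below the rest. For these 4 probes the smallest unadjusted p by limma was 0.0995 and each adjusted p was 0.999. Without the 3 doubtful arrays, UF_Ppr_AF_119024 differed by 1.08 and UF_Ppr_AF_111023 by 0.99 (limma unadjusted p = 0.210 and 0.0383). UF_Ppr_AF_110059 then differed by -0.89 and UF_Ppr_AF_107977 by -1.04 (limma unadjusted p = 0.0937 and 0.0835). The smallest adjusted p by limma among the 4 was then 0.848. The value of 7.47 for UF_Ppr_AF_119024 is on phenanthrene 24 h replicate 3, a doubtful array.

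Within slides the median difference of the list at 24 h was 0.10 on slide 1 (2 phenanthrene and 2 control arrays), -0.41 on slide 2 (2 and 1) and -0.36 on slide 5 (1 and 1, with 198 members tested). On slide 5 an unadjusted p under 0.05 was reached by 15 members, all lower, or 7.58%, where 7.53% of all tested probes were counted in either direction and 5.92% as lower. By limma 2 members and 123 of all 11478 tested probes passed the adjusted test there, where the spread of a lone array is taken to be that of the other groups.

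At 48 h no bright probe passed the adjusted test, and the direction of the list as a whole depended on single arrays. The median log2 difference was 0.10, against -0.08 for all tested probes, and 130 of the 200 differences were above 0. The shift of single arrays moved with this median, and its part was not tested. The median was -0.24 without the 3 doubtful arrays and -0.03 with quantile normalization. Within slides the median was 0.89 on slide 3, which holds phenanthrene 48 h replicate 1, and -0.71 on slide 4, which holds phenanthrene 48 h replicate 3, each with 2 phenanthrene and 2 control arrays. The 2 slides thus gave opposite directions. Unadjusted, 26 probes were higher and 1 lower within slide 3, and 0 higher and 5 lower within slide 4. Of all tested probes, 2.02% were higher and 3.44% lower within slide 3, and 1.62% higher and 2.13% lower within slide 4. By limma with Benjamini-Hochberg adjustment 0 of the 200 and 0 of all tested probes passed. Unadjusted p-values under 0.05 were reached by 2 higher and 0 lower members, or 1.0% of the list, where 1.51% of all tested probes were higher and 2.74% lower. Groups without overlap were found for 0 of the 193, where 0.713% of all such probes had them.

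The 2 probes counted were UF_Ppr_AF_118035 and UF_Ppr_AF_101196. UF_Ppr_AF_118035 had 10.67, 9.73, 7.39, 9.43 and 9.14 log2 units on phenanthrene arrays, against 7.37, 7.50, 8.39, 7.92 and 8.58 on control arrays. UF_Ppr_AF_101196 had 10.91, 10.10, 7.71, 9.95 and 9.73 on phenanthrene arrays, against 8.19, 8.22, 8.83, 8.29 and 9.33 on control arrays. For both, 4 of 5 phenanthrene arrays were above every control, and phenanthrene 48 h replicate 3 was near or below the lowest control.

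UF_Ppr_AF_118035 averaged 9.27 ± 1.20 with phenanthrene and 7.95 ± 0.53 in controls (SD, n = 5 each), a difference of 1.32 (SE 0.49, limma unadjusted p = 0.0126, adjusted p = 0.953). UF_Ppr_AF_101196 averaged 9.68 ± 1.19 with phenanthrene and 8.57 ± 0.50 in controls (SD, n = 5 each), a difference of 1.11 (SE 0.49, limma unadjusted p = 0.0324, adjusted p = 0.953). Without the 3 doubtful arrays, the difference of UF_Ppr_AF_118035 was 0.97 (limma unadjusted p = 0.0446). That of UF_Ppr_AF_101196 was then 0.80 (limma unadjusted p = 0.104). Within slides the difference of UF_Ppr_AF_118035 was 2.25 on slide 3 and 0.17 on slide 4. That of UF_Ppr_AF_101196 was 1.98 on slide 3 and 0.02 on slide 4. Among lower probes besides UF_Ppr_AF_101592, UF_Ppr_AF_106467 differed by -0.62 (SE 0.34), with 0.02 on slide 3 and -1.68 on slide 4.

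None of the bright probes passed the adjusted test at 72 h. Of those with an unadjusted p under 0.05, more were lower than higher, in the list and over all tested probes. The list was chosen on high control levels, and that choice favours lower values with phenanthrene. How much of the difference came from the choice was not tested. By limma with Benjamini-Hochberg adjustment 0 of the 200 and 0 of all tested probes passed. Unadjusted p-values under 0.05 were reached by 0 higher and 4 lower members, or 2.0% of the list, where 2.05% of all tested probes were higher and 3.21% lower. The count of 4 became 0 without phenanthrene 72 h replicate 4, where 2.68% of all tested probes were counted, and 11, or 5.5%, without phenanthrene 72 h replicate 3, where 8.03% were. The median difference was -0.12, against -0.05 for all tested probes, and 94.5% of the list lay within 2-fold, against 88.1%. Groups did not overlap for 2 of the 193 probes, both lower, or 1.04%, where 1.70% of all such probes did not. Within slides the median was -0.96 on slide 1 (1 phenanthrene and 1 control array), 0.35 on slide 2 (1 and 2) and -0.12 on slide 5 (2 and 2).

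UF_Ppr_AF_110196, the last member of the list, had 5.48, 6.02, 5.98 and 4.33 log2 units on phenanthrene arrays, against 6.56, 6.82, 6.23, 6.98 and 6.12 on control arrays. Every phenanthrene array was below every control. The difference was -1.095 (SE 0.42, limma unadjusted p = 0.0145, adjusted p = 0.893), and within slides it was -1.08 on slide 1, -0.51 on slide 2 and -1.40 on slide 5. Without phenanthrene 72 h replicate 4 and the other doubtful arrays it was -0.72 (limma unadjusted p = 0.0686). Its place in the list rests on the same control values.

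UF_Ppr_AF_110349 had 5.68, 7.35, 6.13 and 5.39 on phenanthrene arrays, against 7.70, 6.95, 7.64, 8.03 and 7.18 on control arrays. Phenanthrene 72 h replicate 2 lay inside the control range and the other 3 below it. The difference was -1.36 (SE 0.56, limma unadjusted p = 0.0227, adjusted p = 0.893), and on slide 2 it was 0.06. Without the 3 doubtful arrays it was -1.11 (limma unadjusted p = 0.0507). At 24 h the same probe averaged 7.13 ± 1.06 (SD, n = 5) with phenanthrene and 6.37 ± 0.92 (SD, n = 4) in controls, and at 48 h 7.10 ± 1.099 with phenanthrene and 6.44 ± 0.56 in controls (SD, n = 5 each). It had the smallest p of the list for a difference between times, an unadjusted 0.0198 and an adjusted 0.99999 by limma's F test.

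The other counted probes at 72 h were UF_Ppr_AF_117727, with a difference of -1.17 (SE 0.52), and UF_Ppr_AF_115082, with -2.04 (SE 0.92), both named after their values were seen. UF_Ppr_AF_115082 averaged 5.13 ± 3.32 with phenanthrene and 7.17 ± 0.44 in controls (SD), so its phenanthrene arrays spread widely. After removal of median departures, it lay more than 4-fold below its control median on 1 phenanthrene and 1 control array of the series. UF_Ppr_AF_118635 was the other probe without overlap: its 4 phenanthrene arrays stood at 7.79, 7.99, 7.80 and 7.76, against 8.71, 8.13, 8.07, 8.13 and 8.69 on control arrays. Its difference was -0.51 (SE 0.33, limma unadjusted p = 0.137). Among higher probes, UF_Ppr_AF_116118 differed by 0.81 (SE 0.52) and UF_Ppr_AF_104643 by 0.82 (SE 0.64), neither past the test. Without the 3 doubtful arrays, UF_Ppr_AF_116118 differed by 0.57 and UF_Ppr_AF_104643 by 0.34.

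Averaged over the 3 times, 1 probe was higher and 1 lower at an unadjusted p under 0.05, where 1.23% of all tested probes were higher and 3.57% lower. By limma with Benjamini-Hochberg adjustment 0 of the 200 and 0 of all tested probes passed. The higher probe was UF_Ppr_AF_109983, with a difference of 0.49 (SE 0.22, limma unadjusted p = 0.0336, adjusted p = 0.836). It averaged 6.84 ± 0.67 (SD, n = 5) with phenanthrene and 6.26 ± 0.17 (SD, n = 4) in controls at 24 h, 6.93 ± 0.70 with phenanthrene and 6.32 ± 0.35 in controls at 48 h (SD, n = 5 each), and 6.98 ± 0.89 (SD, n = 4) with phenanthrene and 6.70 ± 0.13 (SD, n = 5) in controls at 72 h. The phenanthrene arrays spread more widely than the controls at each time. UF_Ppr_AF_115045 was next, with 0.45 (SE 0.29). Without the 3 doubtful arrays, UF_Ppr_AF_109983 differed by 0.35 (limma unadjusted p = 0.0270) and UF_Ppr_AF_115045 by 0.37.

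The lower probe was UF_Ppr_AF_115022, the steadiest of the list and the last but one in rank. It had 6.50, 5.95, 6.21, 6.21 and 5.97 log2 units on phenanthrene arrays at 24 h, against 6.46, 7.27, 6.89 and 6.21 on control arrays. It had 5.66, 6.69, 5.49, 6.34 and 5.98 on phenanthrene arrays at 48 h, against 6.06, 6.12, 6.78, 6.82 and 6.57 on control arrays. It had 5.55, 5.77, 6.08 and 4.89 on phenanthrene arrays at 72 h, against 6.75, 6.26, 5.41, 6.29 and 6.13 on control arrays. The group mean was lower with phenanthrene at all 3 times, and the groups overlapped at all 3. The averaged difference was -0.52 (SE 0.18, limma unadjusted p = 0.0077, adjusted p = 0.836). Without the 3 doubtful arrays it was -0.42 (limma unadjusted p = 0.0297). As a member near rank 200 it owes its place to its control values, so the control side of this difference was not independent of the choice.

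Whether the effect of phenanthrene differed between times was tested with an F test. At an unadjusted p under 0.05 there were 2 of the 200 probes, UF_Ppr_AF_110349 and UF_Ppr_AF_112890, or 1.0%, where 3.41% of all tested probes were counted. None passed after Benjamini-Hochberg adjustment by limma, and 0 of all tested probes did.

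**Figure D5:**
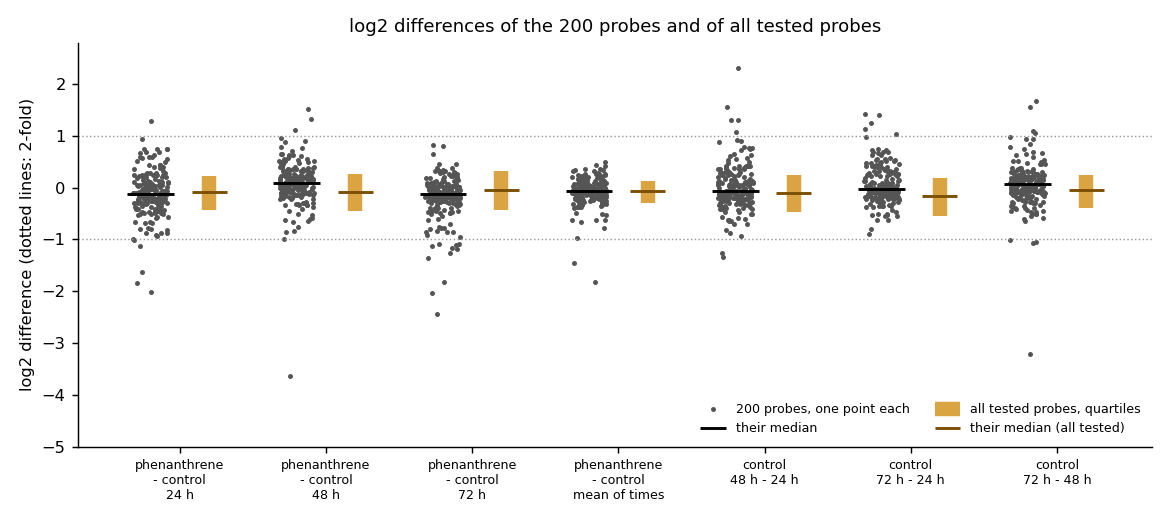
log2 differences of the 200 probes (grey points, black line at the median) in the 4 phenanthrene comparisons and the 3 comparisons of control times, beside the quartiles (bars) and medians (brown lines) of all 11492 tested probes. The medians of the list lie between -0.13 and 0.10, and most points lie inside the dotted 2-fold lines.

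Control liver was also compared between times. These arrays chose the list, and the 3 comparisons share them. Slides 3 and 4, scanned on another day than the rest, held 4 arrays each, all of 48 h, so for most 48 h arrays time and scan day cannot be told apart. At 48 h against 24 h, 3 probes were higher and 1 lower at an unadjusted p under 0.05, where 1.18% of all tested probes were higher and 4.02% lower. In the authors' deposited table the first comparison gave 5 higher and 10 lower, where 1.84% of all tested probes were higher and 3.56% lower. At 72 h against 24 h, 3 were higher and 0 lower, where 0.844% were higher and 3.27% lower. At 72 h against 48 h, 2 were higher and 0 lower, where 2.04% were higher and 1.63% lower. In each comparison 0 of the 200 probes and 0 of all tested probes passed by limma with Benjamini-Hochberg adjustment.

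The median differences of the list were -0.06 for 48 h against 24 h, -0.03 for 72 h against 24 h and 0.06 for 72 h against 48 h, beside -0.10, -0.15 and -0.05 for all tested probes. With median scaling they were 0.05, 0.25 and 0.23, beside 0.02, 0.13 and 0.11. With slide as a fixed block they were -0.29, 0.04 and 0.32, beside -0.13, -0.14 and -0.02, so the direction of the list depended on the setting. Groups did not overlap for 2 of 193 probes at 48 h against 24 h, where 4.24% of all such probes did not overlap. The counts were 4 at 72 h against 24 h, all higher, where the share of all such probes was 3.70%, and 0 at 72 h against 48 h, where it was 0.768%.

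UF_Ppr_AF_115045 led both comparisons with 24 h. It had 7.63, 6.92, 8.21, 7.81 and 7.32 log2 units in controls at 48 h, against 7.46, 6.28, 6.35 and 4.97 in controls at 24 h. In controls at 72 h it had 7.95, 7.50, 7.13, 8.18 and 7.61. Control 24 h replicate 4 was the lowest array, and control 24 h replicate 1 lay among the later arrays. The difference was 1.31 at 48 h against 24 h (SE 0.52, limma unadjusted p = 0.0177, adjusted p = 0.896) and 1.41 at 72 h against 24 h (SE 0.52, limma unadjusted p = 0.0115, adjusted p = 0.964). Within slides the 72 h difference was 1.09 on slide 1, 0.96 on slide 2 and 2.92 on slide 5.

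UF_Ppr_AF_101246 had 4.75, 4.42, 4.79, 4.74 and 7.31 in controls at 48 h, against 6.83, 6.30, 5.72 and 6.99 in controls at 24 h, and 6.64, 6.82, 5.96, 7.25 and 7.15 in controls at 72 h. At 48 h 4 of 5 controls lay below every control of the other times, and control 48 h replicate 5 lay above them all. The difference was -1.26 at 48 h against 24 h (SE 0.57, limma unadjusted p = 0.0381, adjusted p = 0.923) and 1.56 at 72 h against 48 h (SE 0.54, limma unadjusted p = 0.0079, adjusted p = 0.9995). On slide 2, which holds control arrays of all 3 times, the same differences were -0.97 and 1.64.

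The remaining probes counted at an unadjusted p under 0.05 were named after their values were seen. UF_Ppr_AF_111023 differed by 1.32 (SE 0.58) and UF_Ppr_AF_108993 by 0.90 (SE 0.43) at 48 h against 24 h. UF_Ppr_AF_112890 differed by 1.25 (SE 0.57) and UF_Ppr_AF_108993 by 0.98 (SE 0.43) at 72 h against 24 h. UF_Ppr_AF_116100 differed by 1.67 (SE 0.72) at 72 h against 48 h. The 4 probes without overlap at 72 h against 24 h were UF_Ppr_AF_108993, UF_Ppr_AF_107699, UF_Ppr_AF_109983 and UF_Ppr_AF_106033, and the last 3 of them differed by 0.40 to 0.45. At 48 h against 24 h, UF_Ppr_AF_111023 was higher and UF_Ppr_AF_118035 lower without overlap.

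The log2 differences of the 10 brightest probes lay between -0.33 and 0.33 for phenanthrene against control at the 3 times and between -0.46 and 0.36 for the control times. The smallest unadjusted p among them over the 7 comparisons was 0.189 by limma.

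The identifiers of the probes, which the rule did not use, were unevenly represented in the list. Contigs whose names begin with FJU and a cluster number made up 176 of the 200 probes, 88.0%, against 73.9% of all probes. Contigs named FJU_SB made up 18, or 9.0%, against 4.05%. Probes with a gi number were 5, 2.5%, against 21.8% of all probes. The 710 probes whose identifier ends in ms gave 0 members. The letters rc, which follow the number in a probe's identifier, were found in 10.5% of the list and 21.4% of all probes. The sources used here do not say what rc and ms stand for. FJU_SB contigs held 4 of the 10 first places: UF_Ppr_AF_109972, UF_Ppr_AF_102718, UF_Ppr_AF_114707 and UF_Ppr_AF_109733.

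Related contigs outside the list ranged from bright to dim. The 194 members with a cluster number came from 187 clusters, and 6 clusters held 2 or 3 members. Cluster FJU.146 had 3 members at ranks 20, 43 and 160 among its 7 probes. The clusters of the members held 79 further probes, whose median control rank was 5181. Of these, 9 ranked 1000 or better and 31 lay below the median of all probes. The contigs of a cluster may overlap in sequence, so such probes are not independent, and no probe sequence was at hand to compare them.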

How the data were processed

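Each scanner table deposited by the authors holds, per the file headers, Agilent Feature Extraction 10.7.1.1 output for 1 one-colour Cy3 array, and its processed signal is a background-corrected fluorescence intensity on a linear scale. The authors also deposited a series table of log2 values, with no normalization given in the sources used here; 1 column of it belongs to no sample and was not used.

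Processed signals were put on the log2 scale and centred, array by array, on the 75th percentile over the 15208 probes that are not control spots. Spots that the software marked as outliers, 779 in all, were left out of fits and counts of overlap, and saturated spots were kept. The 200 members were the probes with the highest median over the 14 control arrays. Their share of signal is the sum of their processed intensity over that of all 15208 probes. The 11492 probes that at least 3 arrays of 1 group measured well above background were fitted with 6 group means in limma 3.58.1 (R 4.3.3; 22 residual degrees of freedom), with two-sided moderated tests, a Benjamini-Hochberg adjustment for each comparison and a threshold of 0.05. The fit was tested on simulated data. The members, the lists and the tests were chosen with earlier results of these data known. Planned lists of liver genes and of cell markers were not used, since the identifiers carry no gene names.

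Probes named in the text are the 10 highest control medians, the 3 probes on each side of rank 200, for each phenanthrene comparison the 2 higher and 2 lower members of smallest unadjusted p, 1 of each for control times, the smallest p of the F test, the 4 largest and 4 smallest SDs, and the 4 lowest ranks over phenanthrene arrays. Others are marked as named after their values were seen.

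The 28 arrays lay on 5 slides and were scanned on 2 days, per the file headers. Replicate numbers were given in accession order as names, and nothing was paired. The number of arrays limits the precision.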

Additional observations from a re-analysis of the deposited data

Results flagged for a closer look

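Among the 33 named probes and 4 measures of the whole list, 221 groups of 4 or 5 arrays were checked for an array far from the others of its group, and 14 values on 10 arrays stood out. For independent groups of probes not chosen on these data, chance alone would give about 1 in 20, or 11 here. The named probes were chosen on these data and share the same arrays, so the 14 cannot be judged against 11.

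At 24 h UF_Ppr_AF_101592 was at -2.08 log2 units on phenanthrene replicate 3, where the other arrays of its group lay between 7.34 and 8.08. It ranked 6529 on that doubtful array, which had 5127 probes well above background. UF_Ppr_AF_119024 was at 7.47 on the same array, above the 6.33 to 6.62 of the others. UF_Ppr_AF_101246 was at 5.45 on phenanthrene replicate 5. In controls of that time UF_Ppr_AF_106467 was at 6.16 on replicate 2 and UF_Ppr_AF_107235 at 7.66 on replicate 1.

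At 48 h UF_Ppr_AF_109972, the brightest probe of the list, was at 9.58 on phenanthrene replicate 3. UF_Ppr_AF_110349 was at 8.997 on phenanthrene replicate 1, where the others lay between 6.22 and 6.999. On control replicate 5, UF_Ppr_AF_101246 was at 7.31, above the 4.42 to 4.79 of the others, and UF_Ppr_AF_101592 was at 4.77, below the 7.87 to 8.40 of the others.

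At 72 h phenanthrene replicate 4 gave the 10 brightest probes a share of 4.31% of the signal, where the other arrays gave 10.4% to 11.6%. The same array held UF_Ppr_AF_107235 at -1.09 and UF_Ppr_AF_113456 at 7.28. UF_Ppr_AF_118635 was at 7.99 on phenanthrene replicate 2, and UF_Ppr_AF_104643 was at 8.07 on control replicate 5.

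For 2 probes every phenanthrene array lay above the control mean at one time and below it at another. The difference of UF_Ppr_AF_118635 was 0.39 log2 units at 24 h and -0.51 at 72 h. The difference of UF_Ppr_AF_119024 was 1.29 at 24 h and -0.84 at 48 h. The F test of a difference between times gave unadjusted p of 0.179 and 0.154 by limma, with an adjusted p of 0.99999 for both, so neither difference between times passed.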

How the results depend on the processing

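No member passed the adjusted test by limma in any of the 15 alternatives with all arrays or without the 3 arrays of doubtful quality, nor with each of the 28 arrays left out in turn. The smallest adjusted p by limma there, 0.0808, was for controls at 48 h against 24 h with array weights, where 38 of all tested probes passed. For the same comparison with only the arrays compared, 1 of all tested probes passed. Another 1 passed for controls at 72 h against 48 h with slide as a fixed block, and 1 for the difference between times with array weights. The fit within slide 5 at 24 h, with 1 phenanthrene and 1 control array, is described above. The unadjusted counts moved more, and in parentheses is the share of all tested probes counted under the same setting. For phenanthrene at 24 h the count of 0 (2.45%) became 3 (4.13%) with quantile normalization, 1 (2.67%) with median scaling, 4 (1.26%) with normexp, 3 (1.03%) with centring on the 200 probes, 1 (2.32%) with slide as a block, 4 (7.89%) with array weights, 5 (5.8%) without the doubtful arrays, 9 (2.54%) in the authors' table, 6 (1.51%) within slide 1, 1 (1.31%) within slide 2 and 15 (7.53%) within slide 5. At 48 h the count of 2 (4.25%) became 5 (3.85%) with only the arrays compared, 5 (4.43%) without the doubtful arrays, 7 (4.96%) in the authors' table, 27 (5.46%) within slide 3 and 5 (3.75%) within slide 4. At 72 h the count of 4 (5.26%) became 15 (5.0%) with quantile normalization, 1 (3.13%) without the doubtful arrays, 10 (6.67%) in the authors' table and 0 (1.58%) within slide 2. The count of 2 (4.79%) for the mean of times became 5 (4.99%) in the authors' table.

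For controls at 48 h against 24 h the count of 4 (5.2%) became 7 (5.74%) with quantile normalization, 7 (1.92%) with centring on the 200 probes, 1 (3.19%) with slide as a block, 13 (16.3%) with array weights, 15 (5.4%) in the authors' table and 1 (2.86%) within slide 2. At 72 h against 24 h the count of 3 (4.12%) became 5 (3.08%) with quantile normalization, 5 (1.76%) with normexp, 10 (4.73%) with median scaling, 15 (14.4%) with array weights, 7 (8.92%) with only the arrays compared, 8 (6.54%) without the doubtful arrays, 6 (3.26%) in the authors' table, 5 (2.36%) within slide 1 and 0 (2.13%) within slide 2. At 72 h against 48 h the count of 2 (3.66%) became 4 (4.41%) with quantile normalization, 4 (1.96%) with centring on the 200 probes, 4 (10.1%) with array weights, 6 (4.91%) with median scaling, 5 (1.95%) with slide as a block, 5 (5.75%) with only the arrays compared, 5 (5.75%) without the doubtful arrays, 10 (4.9%) in the authors' table and 1 (1.54%) within slide 2. The count of 2 (3.41%) for the difference between times became 7 (4.05%) with quantile normalization, 4 (2.36%) with normexp, 5 (4.75%) without the doubtful arrays and 8 (4.42%) in the authors' table. The cause of these changes was not tested.

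Leaving out single arrays gave counts of 0 to 8 for phenanthrene at 24 h, 1 to 8 at 48 h, 0 to 11 at 72 h and 1 to 3 for the mean of times. For control times they ran from 1 to 6, 1 to 6 and 1 to 5, and for the difference between times from 0 to 6. The shares of all tested probes are not given beside these ranges, so the ranges are not a result about the list. At 72 h, where it is given above, that share was also smaller beside the count of 0 than beside the count of 11. The highest counts at 24 h, 48 h and 72 h came without phenanthrene replicate 1, replicate 3 and replicate 3 of those times. The median SD ran from 0.572 to 0.688.

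Of the named differences, 4 reversed, each within a single slide: UF_Ppr_AF_119024 at 24 h to -1.29 (slide 5), UF_Ppr_AF_106467 at 48 h to 0.021 (slide 3), UF_Ppr_AF_116118 at 72 h to -0.30 (slide 1) and UF_Ppr_AF_110349 at 72 h to 0.060 (slide 2). The other 978 values kept their sign and their side of the threshold. The median SD of the list was 0.466 with quantile normalization, 0.718 with median scaling, 0.479 with centring, 0.454 in the authors' table and 0.566 without the doubtful arrays. The share of signal depended on the length of the list: with 100 probes it was 53.4% on phenanthrene arrays and 54.3% on control arrays, and with 500 probes 82.1% on phenanthrene arrays and 83.4% on control arrays. Under the rules for choosing members that were tried, 189 to 199 of the 200 remained. Centring on the list, values within slides and the SD in the authors' table were chosen after seeing the data.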
